A study of Rattus norvegicus with 6 samples.

Results

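Subplate neurons and Cajal-Retzius cells are the earliest-born neurons of the cerebral cortex. Subplate neurons lie below the cortical plate, where arriving thalamic axons wait and make their first contacts, and Cajal-Retzius cells lie at the brain surface and secrete reelin, the extracellular protein that guides the layering of later-born neurons. Described here are 8 genes used as markers of these cells, chosen by symbol from 30498 genes in the tables: Nr4a2, Inhba, Nxph4, Ccn2 and Cplx3 for the subplate, and Reln, Calb2 and Ndnf for Cajal-Retzius cells. All 8 were found, and all 8 had the mean of at least 0.5 FPKM (fragments per kilobase of exon, scaled to the reads assigned in the library) that was required for testing. The samples were brains of newborn rats (Rattus norvegicus), with 3 libraries from pups of calorically restricted dams (CR, a model of fetal growth restriction) and 3 from pups of control dams. In both groups the brain was dissected right after birth by Caesarean section. The labels give no strain, sex, litter or number of pups per library, so the p-values measure only the spread between these libraries, which may be technical. Every one of the genes is also expressed outside the cells it marks, so a level in bulk RNA is not a count of cells, and fewer cells of a type cannot be told apart from less RNA per cell.

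The libraries held 22161522 to 25734737 assigned reads in CR and 14030961 to 25345354 in control. Although all 6 are labelled as whole brain, the 11 listed genes of midbrain dopamine neurons summed to 31.1 to 40.3 FPKM in CR libraries and to 1.64 to 3.62 FPKM in control libraries, where 6 of the 11 had no read in at least 1 library. The 10 listed genes of cortical excitatory neurons summed to 217.9 to 340.6 FPKM in CR and to 589.3 to 748.6 FPKM in control, without overlap. CR replicate 3 stood apart in Hox genes, which summed to 75.1 FPKM there, to 8.94 and 7.76 FPKM in CR replicates 1 and 2, and to 0.240 to 1.08 FPKM in control. The make-up of the libraries, read from these marker genes alone, therefore differed along with the feeding of the dams. The part of that difference in each result below was not tested unless a measurement is given.

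The genes moved in both directions. In CR libraries Calb2 and Nxph4 were higher, Inhba, Nr4a2 and Reln were lower, and Cplx3, Ccn2 and Ndnf did not pass the test (limma on log2(FPKM + 1), Benjamini-Hochberg adjusted p of 0.05 over 15247 tested genes). The 5 called genes of 8 compare with 33.9% of all tested genes called, the 2 higher ones with 17.7% called higher and the 3 lower ones with 16.2% called lower. In the same 5 genes the CR and control values did not overlap; over all tested genes 26.1% had every CR value above and 24.3% had every CR value below control, 50.3% in all. The median log2 fold change (CR minus control) of the 8 genes was -0.06, against 0.01 for all tested genes. Neither the subplate nor the Cajal-Retzius set moved one way: 1 subplate gene was called higher and 2 lower, and 1 Cajal-Retzius gene was called higher and 1 lower.

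**Figure D1:**
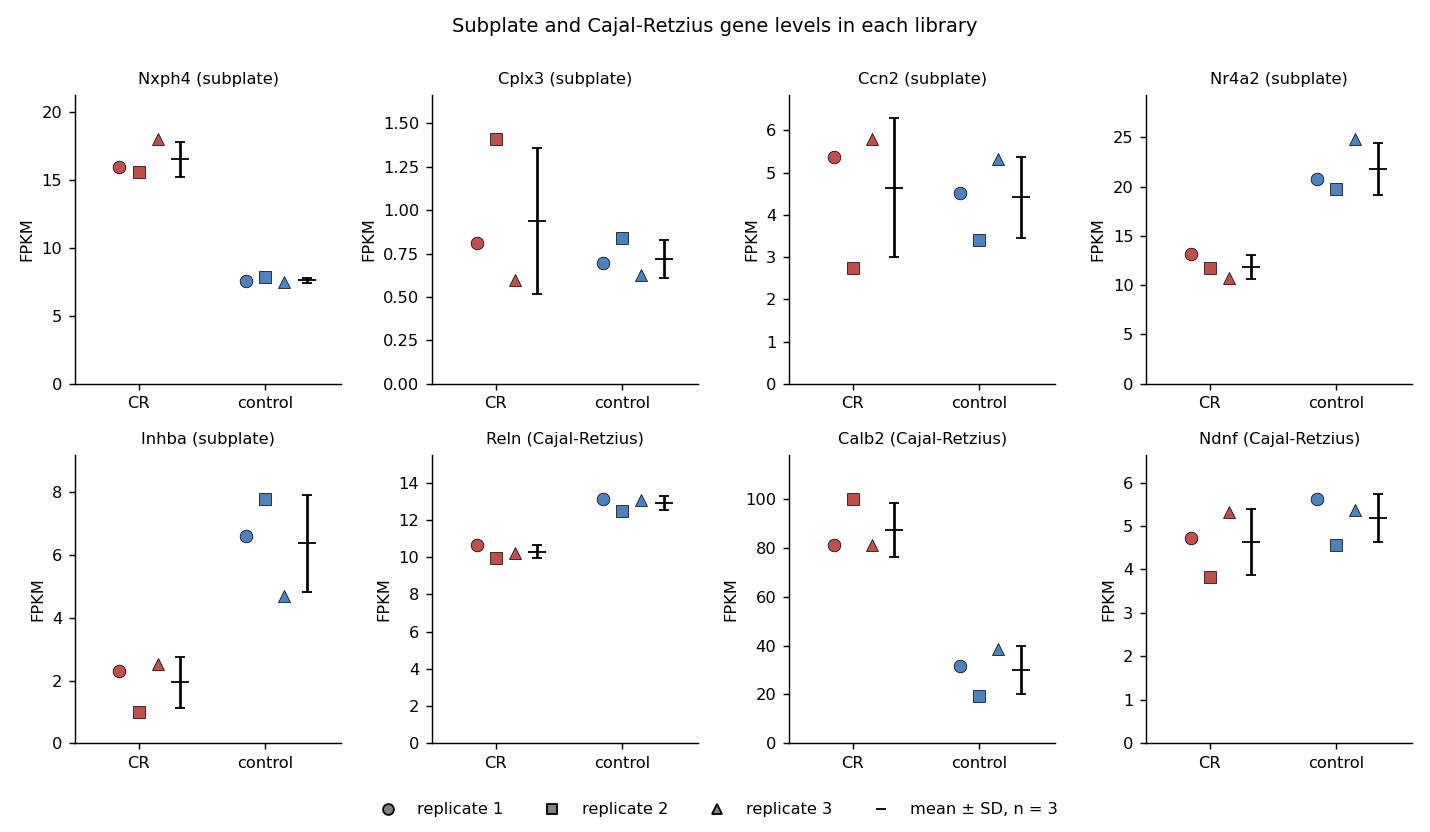
FPKM of each gene (vertical axis, from 0) in the 3 CR libraries (red, left) and the 3 control libraries (blue, right), with symbols for the replicates and a bar for the mean ± SD of each group. Calb2 and Nxph4 are higher in every CR library than in any control library, Nr4a2, Inhba and Reln are lower, and the groups overlap in Cplx3, Ccn2 and Ndnf.

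Among the subplate genes, the transcription factor gene was lower in CR. Nr4a2 (Nurr1, an orphan nuclear receptor that marks subplate neurons and is also required by midbrain dopamine neurons) stood at 13.1, 11.8 and 10.7 FPKM in CR replicates 1 to 3, against 20.8, 19.8 and 24.8 FPKM in control replicates 1 to 3. Every CR library was below every control library. The log2 fold change was -0.82 (SE 0.101, limma adjusted p = 0.00154), and the CR mean was 0.544 of the control mean. The gene (ENSRNOG00000005600) lies on chromosome 3 from 41689851 to 41697877 on the minus strand of mRatBN7.2. Its relative Nr4a3 was lower as well, at 6.82 ± 0.954 FPKM in CR and 16.3 ± 0.265 FPKM in control (SD, n = 3 each; log2 fold change -1.15, limma adjusted p = 0.000477). Nr4a1 of the same family was at 3.96 ± 1.53 FPKM in CR and 3.72 ± 1.15 FPKM in control and did not pass (limma adjusted p = 0.884, named after its value was seen). While Nr4a2 was lower, all 11 listed genes of midbrain dopamine neurons had every CR value above every control value. That held for 26.1% of all tested genes, a share over an unlike set, since 2 of the 11 were not tested. Others, such as En2, reached the 0.5 FPKM needed for testing only through the CR libraries, which fixed their direction. En2, which patterns the midbrain and cerebellum, had 5.34, 6.02 and 3.92 FPKM in CR replicates 1 to 3, against 0.0263, 0.0145 and 0 FPKM in control replicates 1 to 3. Th, the enzyme that makes the dopamine precursor, had 8.22, 8.96 and 6.61 FPKM in CR and 0.714, 0.439 and 0.302 FPKM in control.

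The largest fall was in a secreted ligand. Inhba, which encodes the beta-A subunit of activin and inhibin, had 2.31, 1.01 and 2.52 FPKM in CR replicates 1 to 3, against 6.60, 7.79 and 4.71 FPKM in control replicates 1 to 3. CR replicate 2 was the lowest library, with 40 reads, and the groups did not overlap. The log2 fold change was -1.34 (SE 0.241, limma adjusted p = 0.00551), and the CR mean was 0.306 of the control mean. By absolute log2 fold change Inhba ranked 156 among the 15247 tested genes, behind Calb2 at rank 101 and ahead of Nxph4 at rank 341 and Nr4a2 at rank 614. The gene (ENSRNOG00000014320) lies on chromosome 17 from 49095920 to 49108982 on the minus strand of mRatBN7.2. Of the 12 tested genes of the activin pathway other than Inhba, 3 were called lower, none higher and 9 did not pass, with a median log2 fold change of -0.08; over all tested genes 33.9% were called and 16.2% were called lower. The 3 were Inhbb, the beta-B subunit (1.88 ± 0.0547 FPKM in CR and 3.33 ± 0.715 FPKM in control), Smad4, the shared signal transducer (16.5 ± 1.13 FPKM in CR and 22.7 ± 0.886 FPKM in control), and Smad2, an activin-responsive transducer (11.7 ± 0.267 FPKM in CR and 14.4 ± 0.802 FPKM in control). Without control replicate 3 the list had 5 genes called.

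The other secreted proteins of the subplate set did not follow Inhba. Nxph4, which encodes neurexophilin 4, a ligand of alpha-neurexins, had 15.9, 15.6 and 18.0 FPKM in CR replicates 1 to 3, against 7.59, 7.81 and 7.46 FPKM in control replicates 1 to 3. All CR libraries were above all control libraries, whose SD was 0.181 FPKM. The CR mean was 2.16 times the control mean, with a log2 fold change of 1.02 (SE 0.0702, limma adjusted p = 0.000285). The gene (ENSRNOG00000025059) lies on chromosome 7 from 63367761 to 63376579 on the minus strand of mRatBN7.2. Its paralog Nxph1 was also higher (24.5 ± 1.53 FPKM in CR and 18.5 ± 1.22 FPKM in control, limma adjusted p = 0.0056), as were the receptor genes Nrxn2 (62.7 ± 2.66 FPKM in CR and 48.4 ± 2.67 FPKM in control) and Nrxn3 (11.03 ± 0.431 FPKM in CR and 8.57 ± 0.921 FPKM in control). In the list of complexins and neurexophilins with their receptors, 4 of the 5 tested genes were called higher and none lower. Over all tested genes 17.7% were called higher. Cplx1, Nxph2 and Nxph3 were not analysed here.

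Ccn2, which encodes connective tissue growth factor, a matrix-associated protein of the subplate and also of meninges and vessels, had 5.37, 2.75 and 5.79 FPKM in CR replicates 1 to 3 and 4.53, 3.39 and 5.32 FPKM in control replicates 1 to 3. In each group replicate 2 was the lowest, and the ranges overlapped. The gene (ENSRNOG00000015036) lies on chromosome 1 from 20802199 to 20805734 on the minus strand of mRatBN7.2. The log2 fold change was 0.03 with a 95% confidence interval of -0.52 to 0.58 (limma adjusted p = 0.943). The sign was negative without CR replicate 1, CR replicate 3 or control replicate 2. Of 7 tested genes of meningeal fibroblasts 1 was called higher, against 17.7% of all tested genes. The 7 summed to 88.8 to 107.7 FPKM in CR and to 42.9 to 89.1 FPKM in control. The called gene was Slc6a13, a meningeal transporter (14.9 ± 1.62 FPKM in CR and 6.92 ± 3.24 FPKM in control). It was not called without CR replicate 1, 2 or 3, and the list had 4 genes called without control replicate 3, 4 with limma-voom on the reads and 0 with no filter on low values. None of 6 tested genes of endothelium and pericytes passed, against 33.9% called over all tested genes. With limma 1 of the 6 had an unadjusted p under 0.05, and with limma-voom 0 were called. The lowest p in that list was that of the pericyte receptor gene Pdgfrb (6.02 ± 0.850 FPKM in CR and 4.87 ± 0.406 FPKM in control), followed by the vascular receptor gene Kdr (6.22 ± 0.854 FPKM in CR and 5.09 ± 0.442 FPKM in control). Of the CCN family, Ccn1 (limma adjusted p = 0.551) and Ccn3 (0.228), named after their values were seen, were tested and did not pass.

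Cplx3, which encodes a complexin that regulates vesicle fusion and is found in subplate neurons and retina, was the lowest of the 8 genes, with 33 to 123 reads per library. It had 0.811, 1.41 and 0.597 FPKM in CR replicates 1 to 3 and 0.693, 0.837 and 0.624 FPKM in control replicates 1 to 3. CR replicate 2 was the highest library and CR replicate 3 the lowest, so the CR range enclosed the control range. The gene (ENSRNOG00000019317) lies on chromosome 8 from 58003535 to 58010297 on the minus strand of mRatBN7.2. The log2 fold change was 0.15 (95% confidence interval -0.23 to 0.54, limma adjusted p = 0.503), and it was -0.01 without CR replicate 2. The more abundant complexin gene Cplx2 was at 52.8 ± 0.602 FPKM in CR and 54.0 ± 2.71 FPKM in control (limma adjusted p = 0.654, named after its value was seen).

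The Cajal-Retzius set was also split. Reln, which encodes reelin, had 10.7, 9.96 and 10.2 FPKM in CR replicates 1 to 3, against 13.1, 12.5 and 13.1 FPKM in control replicates 1 to 3. The libraries of a group lay close together, with 2828 to 4848 reads each, and the groups did not overlap. The log2 fold change was -0.30 (SE 0.0583, limma adjusted p = 0.00742), a CR mean of 0.797 of the control mean. The gene (ENSRNOG00000021441) lies on chromosome 4 from 12736130 to 13162211 on the plus strand of mRatBN7.2. Of 14 tested genes of the reelin pathway 1 was called higher, 6 lower and 7 did not pass, with a median log2 fold change of -0.13, against 33.9% called and 16.2% called lower over all tested genes. The count of 7 called genes was 3 or 4 without any single library other than control replicate 3, and 8 without that one. Dab1, the adaptor that carries the reelin signal into the cell, was at 24.9 ± 1.05 FPKM in CR and 36.8 ± 3.50 FPKM in control (log2 fold change -0.55, SE 0.0735, limma adjusted p = 0.00207). The adaptor genes Nck2 (17.4 ± 1.75 FPKM in CR and 23.6 ± 0.0407 FPKM in control) and Crkl (16.8 ± 0.413 FPKM in CR and 20.8 ± 1.14 FPKM in control) were lower, and the integrin gene Itga3 (9.17 ± 0.897 FPKM in CR and 6.93 ± 1.11 FPKM in control) was higher in CR. Of the 2 reelin receptors, named after their values were seen, Lrp8 was lower (27.4 ± 1.76 FPKM in CR and 32.3 ± 1.53 FPKM in control, limma adjusted p = 0.0233) and Vldlr, at 11.5 ± 0.567 FPKM in CR and 12.8 ± 0.544 FPKM in control, did not pass (limma adjusted p = 0.121).

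Calb2, which encodes the calcium-binding protein calretinin and is expressed in Cajal-Retzius cells and in interneurons, thalamus, midbrain and cerebellum, showed the largest rise. It had 81.1, 100.1 and 80.98 FPKM in CR replicates 1 to 3, against 31.8, 19.4 and 38.7 FPKM in control replicates 1 to 3. Control replicate 2 was the lowest library and CR replicate 2 the highest, and the groups were far apart. The CR mean was 2.91 times the control mean (log2 fold change 1.56, SE 0.222, limma adjusted p = 0.00244). The gene (ENSRNOG00000016977) lies on chromosome 19 from 38114424 to 38141438 on the minus strand of mRatBN7.2. Calb1, the related gene of calbindin, was higher as well (23.3 ± 1.69 FPKM in CR and 13.8 ± 3.86 FPKM in control, limma adjusted p = 0.011). With Nr4a3 it was 1 of 2 called among 8 tested relatives of the genes other than Nxph4 and Cplx3. Over all tested genes 33.9% were called.

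Genes of thalamus and cerebellum, which also express Calb2, were mostly higher in CR, and genes of forebrain inhibitory neurons were mixed. Over all tested genes 17.7% were called higher and 16.2% lower, and 26.1% had every CR value above control. The 6 listed thalamic genes summed to 80.8 to 120.2 FPKM in CR and to 6.90 to 26.1 FPKM in control, and 5 of the 6 were called higher, with Shox2, Tcf7l2, Lhx9 and Gbx2 showing the largest changes (log2 fold changes of 3.28, 2.78, 2.22 and 1.73). Of the 9 listed cerebellar genes 7 had every CR value above every control value, 6 had a mean high enough to be tested and were called, and the list summed to 88.3 to 102.4 FPKM in CR and to 27.9 to 45.4 FPKM in control. Its largest change was in Barhl1, a gene of granule cell precursors (7.84 ± 0.902 FPKM in CR and 0.0697 ± 0.0419 FPKM in control), and without CR replicate 2 it had 3 genes called. Barhl1, and Shox2 of the thalamic list (control mean 0.431 FPKM), reached the 0.5 FPKM needed for testing only through the CR libraries. Their direction was thus fixed by being tested. The 3 cerebellar genes with lower means were not tested and could not be called, and some of them are among the 7. The 26.1% covers tested genes only. Among forebrain inhibitory neurons 2 of 9 tested genes were called higher and 5 lower. Sst, the gene of somatostatin, was at 223.5 ± 12.8 FPKM in CR and 136.8 ± 33.5 FPKM in control, and the interneuron transcription factor genes Dlx5 (13.8 ± 0.883 FPKM in CR and 27.3 ± 2.85 FPKM in control), Lhx6 (7.94 ± 0.792 FPKM in CR and 14.4 ± 0.485 FPKM in control) and the neuropeptide gene Npy (129.0 ± 13.3 FPKM in CR and 222.3 ± 56.6 FPKM in control) were lower. Without CR replicate 2 that list had 4 genes called. The part of these regions in the Calb2 difference was not tested.

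Ndnf, which encodes a secreted neurotrophic factor of Cajal-Retzius cells and of neurogliaform interneurons, had 4.73, 3.84 and 5.33 FPKM in CR replicates 1 to 3 and 5.63, 4.55 and 5.37 FPKM in control replicates 1 to 3. Replicate 2 was again the lowest in both groups, and the ranges overlapped. The gene (ENSRNOG00000006857) lies on chromosome 4 from 94944360 to 94981873 on the plus strand of mRatBN7.2. The log2 fold change was -0.14 (95% confidence interval -0.42 to 0.14, limma adjusted p = 0.409).

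**Figure D2:**
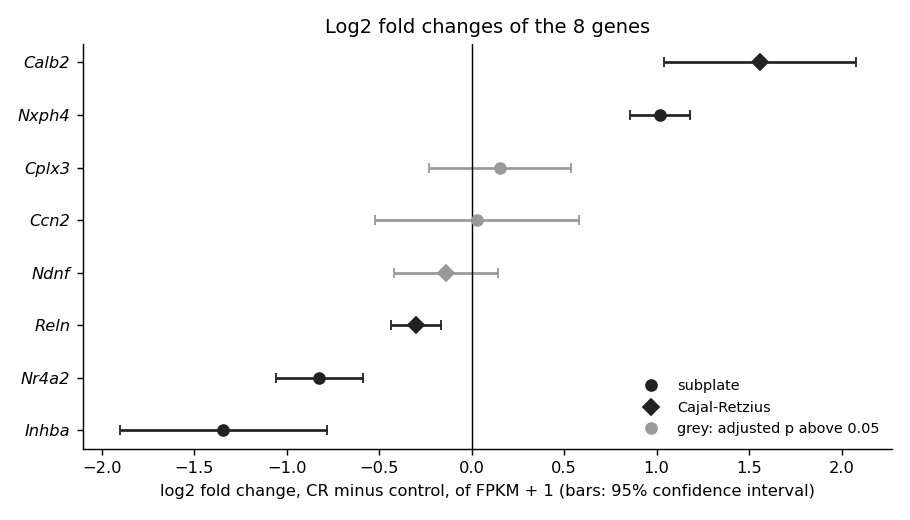
Log2 fold change of each gene (CR minus control, on FPKM + 1; horizontal axis) with its 95% confidence interval from limma, for subplate (circles) and Cajal-Retzius genes (diamonds); grey marks genes that did not pass an adjusted p of 0.05. The values run from -1.34 for Inhba to 1.56 for Calb2, and the intervals of Cplx3, Ccn2 and Ndnf cross 0.

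The order of the levels, which are per length, differed between the groups. In CR libraries Calb2 (87.4 ± 11.03 FPKM) was followed by Nxph4 (16.5 ± 1.30), Nr4a2 (11.9 ± 1.20), Reln (10.3 ± 0.353), Ccn2 (4.64 ± 1.65), Ndnf (4.63 ± 0.750), Inhba (1.95 ± 0.820) and Cplx3 (0.939 ± 0.421). Ccn2 and Ndnf overlapped in CR, as did Inhba and Cplx3. In control libraries the order was Calb2 (30.0 ± 9.77 FPKM), Nr4a2 (21.8 ± 2.66), Reln (12.9 ± 0.374), Nxph4 (7.62 ± 0.181), Inhba (6.37 ± 1.56), Ndnf (5.18 ± 0.562), Ccn2 (4.41 ± 0.967) and Cplx3 (0.718 ± 0.109). Here Calb2 overlapped with Nr4a2, Nxph4 with Inhba, Inhba with Ndnf, and Ndnf with Ccn2. Counting from the highest, Nxph4 had rank 2 in all 3 CR libraries and rank 4 in all 3 control libraries.

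Other genes known from the same cells were read from the same fit, to see whether the 8 are typical of them. Over all tested genes 17.7% were called higher and 16.2% lower. Of 15 tested further subplate genes 6 were called higher, 3 lower and 6 did not pass, with a median log2 fold change of 0.25. Tmem163, which encodes a zinc transporter (29.3 ± 2.65 FPKM in CR and 15.4 ± 0.742 FPKM in control), and the cadherin gene Cdh18 (4.61 ± 0.206 FPKM in CR and 2.18 ± 0.168 FPKM in control) were higher. The dopamine receptor gene Drd1, which is strong in striatum too (2.17 ± 0.349 FPKM in CR and 5.28 ± 1.29 FPKM in control), and the lipid transporter gene Abca8a (3.13 ± 0.597 FPKM in CR and 5.60 ± 0.601 FPKM in control) were lower. Of 10 further Cajal-Retzius genes 6 were called higher, 1 lower and 3 did not pass, with a median log2 fold change of 0.96. Among those that did not pass, Nhlh2 (log2 fold change 0.42, limma adjusted p = 0.0503) and Dmrta2 (-0.33, limma adjusted p = 0.0507) were just short of the threshold. The list had 7 genes called, 9 with limma-voom on the reads and 6 without CR replicate 2. The largest changes were in the transcription factor genes Ebf3 (22.9 ± 1.86 FPKM in CR and 1.32 ± 0.402 FPKM in control), Lhx5 (6.32 ± 0.190 FPKM in CR and 0.851 ± 0.437 FPKM in control), Lhx1 (3.60 ± 0.195 FPKM in CR and 0.441 ± 0.201 FPKM in control) and Ebf2 (2.32 ± 0.0141 FPKM in CR and 0.245 ± 0.1496 FPKM in control), all of which are also expressed in midbrain, hindbrain or cerebellum; Zic1 stands in the cerebellar list as well. Lhx1 and Ebf2 reached the 0.5 FPKM needed for testing only through the CR libraries, so their direction was fixed by being tested. The 1 gene called lower was the chemokine receptor gene Cxcr4 (16.6 ± 2.49 FPKM in CR and 24.6 ± 1.79 FPKM in control). Tp73, which encodes the p73 protein and within the cortex is largely restricted to Cajal-Retzius cells, was at 0.781 ± 0.136 FPKM in CR and 0.998 ± 0.369 FPKM in control and did not pass (limma adjusted p = 0.469). Cxcr4, Tp73, Nhlh2 and Dmrta2 were named after their values were seen.

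**Figure D3:**
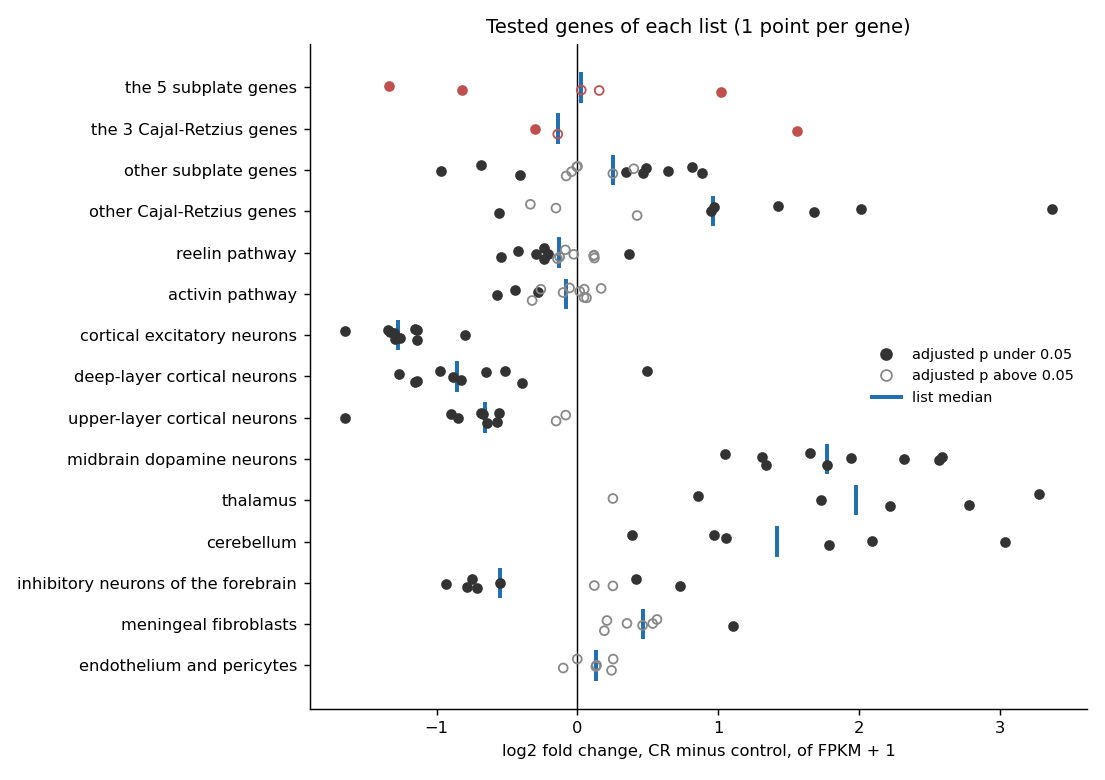
Log2 fold change (CR minus control, on FPKM + 1; horizontal axis) of each tested gene of the lists, 1 point per gene, with the 8 genes described here in red, filled points for an adjusted p under 0.05 and a blue line at the median of each list. The 8 genes lie on both sides of 0, whereas all 10 cortical excitatory neuron genes lie below 0. All tested midbrain, thalamic and cerebellar genes lie above 0. Some of them, such as En2 and Barhl1, reached the 0.5 FPKM needed for testing only through the CR libraries. Their direction was thus fixed by being tested.

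The lists of cortical neuron genes gave a more uniform picture. How far subplate or Cajal-Retzius cells also express these genes was not examined, so the lists are not read as separate from those cells. Over all tested genes 16.2% were called lower and 17.7% higher. All 10 genes of the cortical excitatory neuron list were called lower, with a median log2 fold change of -1.28, among them Mef2c, Emx1 and Bhlhe22 (-1.34, -1.33 and -1.30). Of 10 deep-layer genes 9 were called lower (median -0.85), and Foxp2, named after its value was seen, was higher (0.49). The lower ones were led by Ntsr1 (-1.27), Tbr1 (-1.15), Fezf2 (-1.14) and Sox5 (-0.98). Of 10 upper-layer genes 8 were called lower and none higher (median -0.66), among them Pou3f3 (-0.90), Pou3f2 (-0.85) and Cux2 (-0.68). Tbr1 and Fezf2 stand in both the cortical excitatory and the deep-layer list. Inhbb, named above with the activin pathway, is also counted among the lower genes of the upper-layer list.

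The 8 genes were also set against the cortical list of the same library, as log2(FPKM + 1) of the gene minus the mean log2(FPKM + 1) of the 10 cortical genes. That mean was 4.78, 4.14 and 4.56 in CR replicates 1 to 3 and 5.84, 5.83 and 5.53 in control replicates 1 to 3. Relative to it, Inhba was at -2.98 ± 0.208 in CR and -2.87 ± 0.168 in control (SD, n = 3 each), and the ranges overlapped (difference -0.10, two-sided exact permutation p = 0.5). Inhba is a low gene, and adding 1 to the FPKM shrinks its change. Its log2 fold change by FPKM was -1.34 with 1 added and -1.73 with 0.1 added. The scale relative to the cortical list was not computed with 0.1, so the near-equality of Inhba holds for 1 only. Nr4a2 was at -0.81 ± 0.302 in CR and -1.23 ± 0.338 in control, again with overlap (difference 0.42, exact permutation p = 0.3). Leaving out control replicate 3 gave a difference of 0.61 for Nr4a2 without overlap (exact permutation p = 0.1), and leaving out CR replicate 2 gave 0.24 (p = 0.4). The cortical mean itself differed by -1.24 between CR and control, so the difference of every gene on this scale is its difference by log2(FPKM + 1) moved up by the same amount. In the other 6 of the 8 genes every CR library was above every control library, which was also so for 96.3% of all tested genes, while 0.00656% had every CR library below. The differences were 2.80 for Calb2, 2.26 for Nxph4, 1.40 for Cplx3, 1.27 for Ccn2, 1.10 for Ndnf and 0.94 for Reln, each with an exact permutation p of 0.1, the smallest that 3 against 3 libraries allow. For Ccn2, Ndnf and Cplx3, which did not pass by FPKM, and for Reln, which was lower by FPKM, most or all of the positive value here is that of the cortical list, and it does not show a rise of the gene.

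**Figure D4:**
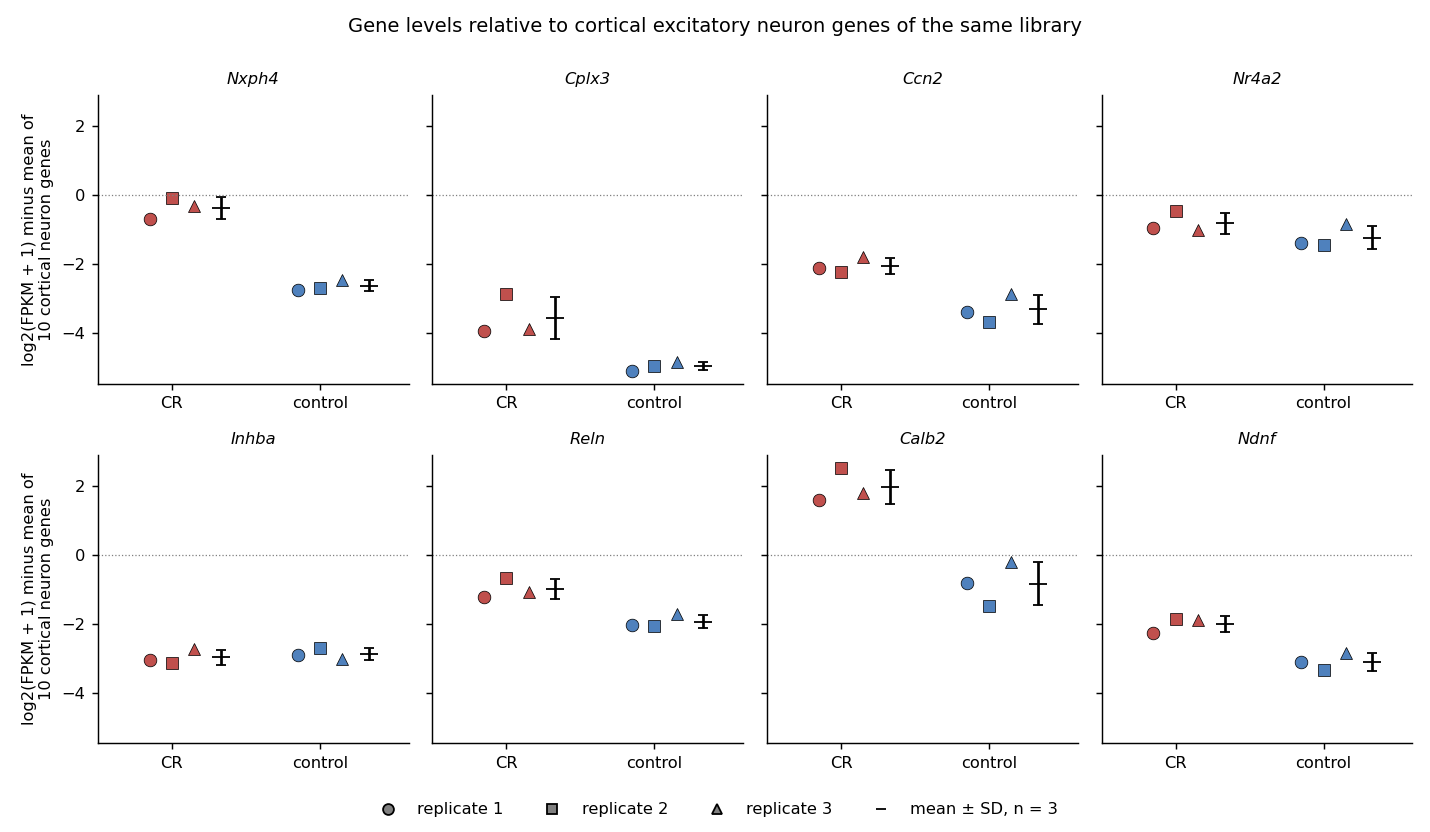
Level of each gene relative to cortical excitatory neuron genes of the same library (vertical axis, log2(FPKM + 1) of the gene minus the mean over 10 cortical genes), in CR (red, left) and control libraries (blue, right), with the mean ± SD of each group. Inhba and Nr4a2 overlap between the groups, and the other 6 genes are higher in every CR library than in any control library, as are 96.3% of all tested genes on this scale, since the cortical mean differed by -1.24.

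Levels that ran most like those of the 8 genes were looked up among 12440 tested genes with an official symbol, by Pearson's r of log2(FPKM + 1) over the 6 libraries. With 6 points that fall into 2 groups a high r is common: 6.71% of these genes had an r above 0.95 with Calb2 and 6.34% with Nxph4. The 3 nearest to Calb2 were Nppa, Ivd and Cib1 (r of 0.998 each), and the 3 nearest to Nxph4 were Tph2, Aacs and Cadps (0.997 to 0.999). Nearest to Inhba were Bcl11a, Nfix and Peli2 (0.997 to 0.999), nearest to Nr4a2 were Obi1, Sipa1l2 and Foxj3 (0.996 to 0.997), and nearest to Reln were Efnb2, Rpp38 and Msra (0.998 to 0.999). For the genes that did not pass, high likeness was rare. Ccn2 had 10 genes with an r above 0.95, led by Cdhr2, Fap and Zmynd11 (0.982 to 0.990), Ndnf had 7, led by Mrtfa, Dnajb14 and Jam3 (0.963 to 0.989), and Cplx3 had 4, led by Cmpk2, Coq2 and Slc50a1 (0.961 to 0.9795). Among the 8 themselves, the pairs of called genes followed the split between the groups, with an r of 0.97 for Nr4a2 with Reln, -0.97 for Nxph4 with each of them and -0.96 for Inhba with Calb2. Of the genes not called, Ndnf ran with Ccn2 (r of 0.80) and against Cplx3 (-0.94), and Ccn2 ran against Cplx3 (-0.86), CR replicate 2 being lowest in Ccn2 and Ndnf and highest in Cplx3.

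The promoter windows of the 3 genes called lower, Inhba, Nr4a2 and Reln, were compared. RefSeq (GRCr8) gave windows from 250 bases before to 50 after the annotated start for 5 of the 8 genes, these 3 with Ccn2 and Cplx3. They are shown 5′ to 3′ on the strand of the gene, with capitals for matches, on either strand, to the TATA box (TATAAA), the GC box (GGGCGG), the AP-1 site (TGANTCA), the cyclic-AMP response element core (TGACGT), the nuclear receptor half-site (AGGTCA), the TEAD site (GGAATG) and the T-box site (TCACACC). The windows lie at chr17:53804459-53804758 on the minus strand for Inhba, at chr3:62104838-62105137 on the minus strand for Nr4a2 and at chr4:13628318-13628617 on the plus strand for Reln.
Inhba: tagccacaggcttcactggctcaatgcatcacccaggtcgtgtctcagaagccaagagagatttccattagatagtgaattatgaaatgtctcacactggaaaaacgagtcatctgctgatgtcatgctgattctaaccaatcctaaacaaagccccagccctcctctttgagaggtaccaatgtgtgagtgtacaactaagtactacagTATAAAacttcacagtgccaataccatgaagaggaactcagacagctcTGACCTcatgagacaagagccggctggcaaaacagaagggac
Nr4a2: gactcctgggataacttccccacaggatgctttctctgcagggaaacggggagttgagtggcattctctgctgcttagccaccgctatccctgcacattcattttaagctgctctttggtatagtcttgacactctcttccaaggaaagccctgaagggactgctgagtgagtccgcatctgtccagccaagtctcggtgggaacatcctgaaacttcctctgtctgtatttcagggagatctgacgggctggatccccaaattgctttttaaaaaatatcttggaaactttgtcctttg
Reln: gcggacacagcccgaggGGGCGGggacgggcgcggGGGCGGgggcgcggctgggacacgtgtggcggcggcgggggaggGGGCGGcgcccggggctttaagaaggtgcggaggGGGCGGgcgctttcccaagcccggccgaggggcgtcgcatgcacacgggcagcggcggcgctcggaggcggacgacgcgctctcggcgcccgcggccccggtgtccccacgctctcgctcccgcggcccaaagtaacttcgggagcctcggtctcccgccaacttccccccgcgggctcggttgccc
The windows had little in common. That of Inhba held a TATA box 40 bases before the start, a motif found in 14.2% of 33469 windows of the same length, and a nuclear receptor half-site on the opposite strand just after the start (16.2% of windows). That of Reln was 79.0% G and C, against a median of 51.7% over all windows, and held 4 GC boxes (33.1% of windows have at least 1). That of Nr4a2 held none of these motifs. The E-box (CANNTG), which is not marked, occurred once in each of the 3 windows and in 72.1% of all windows. No match overlapped another. For comparison, the window of Ccn2, a gene that did not pass the test, held 3 TEAD sites (14.2% of windows have at least 1). It also held a TATA box 31 bases before the start, GC boxes 43 and 13 bases before it, and a T-box site (3.83% of windows). The window of Cplx3, which did not pass either, held an E-box and none of the marked motifs. A match to a motif is a description of the letters and does not show that a factor binds there.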

How the data were processed

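Per the labels' protocols, polyadenylated RNA from a TRIzol extraction was made into libraries with the QIAseq Stranded and MGIEasy kits. The submitters' processing notes name cutadapt 1.16, Trim Galore 0.4.4, Trimmomatic 0.36, featureCounts 2.0.1 and STAR 2.7.10a, on the build mRatBN7.2; order, settings and the strand option of the counting are not given in the sources used here. No exon of the 8 genes overlaps an exon of another gene in the tables. The authors deposited FPKM per Ensembl gene with its exon length, 1 table per library. The product of FPKM and length had 1 total in all tables, and 100% of values were whole multiples (within 0.05) of the worth of 1 read, which gave the reads. For 1 kb of exon, 3 reads are 0.117 to 0.214 FPKM, a limit that covers counting error only.

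Genes averaging 0.5 FPKM or more were tested with limma 3.58.1 in R 4.3.3, on log2(FPKM + 1) with group as the only term and a trend on the mean, two-sided, and adjusted by Benjamini-Hochberg over all tested genes. This scale understates changes of low genes. The test was checked on simulated data. Where several IDs had 1 symbol, the highest was used. Replicates differed by more than counting noise (mean chi-square per gene of 6.63 to 15.6, 1 for noise alone). The 8 genes and the lists were chosen with earlier results of these data known. The genes named were, per list, up to 4 called genes with the largest absolute log2 fold change or, if none was called, the 2 with the smallest p, and the 3 genes most like each of the 8; others are marked. Some genes the rule would name are not reported here. The choroid plexus list (7 tested, 1 called, Otx2, which the midbrain also expresses, against 33.9% called over all tested genes) is given only here. It had 4 called without control replicate 1. Alternatives were pseudocounts of 0.1 and 0.5, no filter (any read), a minimum mean of 2 FPKM, quantile or median-ratio scaling, robust limma, limma with no trend, the replicate number as a block, limma-voom on the reads, and each library left out.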

Additional observations from a re-analysis of the deposited data

How the results depend on the processing

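The 5 genes called (Calb2, Nxph4, Inhba, Nr4a2 and Reln) were called in the same direction under all 16 alternatives, with their highest adjusted p (limma) being 0.0343 for Reln without CR replicate 2, 0.0194 for Inhba with no filter, and 0.0131, 0.00903 and 0.00197 for Calb2, Nr4a2 and Nxph4 without CR replicate 2. Leaving out each library in turn gave log2 fold changes of 0.96 to 1.06 for Nxph4, -0.89 to -0.73 for Nr4a2, -1.52 to -1.09 for Inhba, -0.32 to -0.28 for Reln and 1.29 to 1.76 for Calb2. Of the 3 genes not called, none was called under any alternative, and the sign of 2 of them turned. Ccn2 was at 0.00 with quantile normalization (-0.0013) and ran from -0.13 to 0.30 when libraries were left out, being negative without CR replicate 1 (-0.08), CR replicate 3 (-0.13) or control replicate 2 (-0.12). Cplx3 ran from -0.013 (without CR replicate 2) to 0.28, and at a minimum mean of 2 FPKM it was not tested. Ndnf ran from -0.23 to -0.03. The count over all genes was 5173, between 3243 (without CR replicate 2) and 5037 when 1 library was left out, and 3339 without CR replicate 3. Same-numbered libraries of the groups deviated together only weakly (r of 0.0198 to 0.0454 over genes), though each library correlated best with its own number, so the numbers are not taken as pairs; with the replicate block 4445 genes and 5 of the 8 were called. Relative to the cortical list no difference changed sign, with the median of the list in place of the mean or with a library left out. Among the 16 companion lists 240 of 256 counts stayed within 1.5 times the main count. Cplx3 had 33 to 123 reads per library, which limits the precision of its values.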
